A study of Mus musculus with 12 samples.

Results

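The cytoplasmic ribosomal protein genes of mouse peritoneal macrophages, the phagocytes of the abdominal cavity, are described here. They were taken by symbol: Rps or Rpl followed by a number, an isoform letter or the letter l, together with Rpsa and the stalk genes Rplp0, Rplp1 and Rplp2. The rule found 84 members among 24279 rows of the expression table. Of these, 31 encode proteins of the small (40S) subunit, 43 proteins of the large (60S) subunit, 3 proteins of the ribosomal stalk, and 7 are paralogs of another member (Rpl3l, Rpl7l1, Rpl10l, Rpl22l1, Rpl39l, Rps4l and Rps27l). The GENCODE annotation lists Rps4l as a transcribed processed pseudogene and the other members as protein-coding. The genes lie on 19 chromosomes.

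The 12 libraries fell into 4 groups of 3. Macrophages from mice lacking Pim1, a serine/threonine kinase gene, and from wild-type (WT) mice received oxidized low-density lipoprotein (oxLDL, a modified lipid particle that macrophages take up, 20 µg/mL for 8 h) or PBS. The groups are called Pim1-/- oxLDL, WT oxLDL, Pim1-/- PBS and WT PBS. The kind of Pim1 deletion, the cells that carry it, the strain and the age of the mice are not given in the sources used here. Nor are the animals or cultures behind the 3 libraries of each group, so the p-values measure the spread between these samples, which may be technical.

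A ribosome has a small subunit, which decodes the mRNA, and a large subunit, which joins the amino acids. Each subunit needs its proteins in equal numbers, apart from the stalk, which carries more than a single copy of the P1 and P2 proteins and recruits the elongation factors. In mammals most ribosomal protein mRNAs begin with a C followed by a run of pyrimidines (C or T), the TOP motif. Through it the kinase mTORC1, its targets of the 4E-BP family and the RNA-binding protein LARP1 control how strongly these mRNAs are translated and how stable they are. Many of the genes also have near-identical processed copies elsewhere in the genome.

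The values are the authors' TPM, a transcript abundance corrected for transcript length and scaled to the same total in every library, so sequencing depth is unknown. Pim1 itself had 47.8, 13.6 and 12.3 TPM in Pim1-/- oxLDL, against 365, 56.0 and 114 TPM in WT oxLDL. In PBS it had 13.9, 10.2 and 30.6 TPM in Pim1-/- and 93.1, 68.5 and 77.6 TPM in WT. Every Pim1-/- library was below every WT library, and none was at 0. All 10 macrophage markers looked up were in the table, with summed levels of 12212 to 24380 TPM per library. The library WT PBS 3 stood apart by a summed level of 481 TPM over T and NK cell markers, against 4.93 to 30.3 TPM in the other 11, where Nkg7 had 333 TPM, Cd3d had 61.5 TPM, and Cd2, Cd5, Ncr1 and Klrb1c were listed at 0. Over all genes WT oxLDL 2 had its closest library in another group, Pim1-/- oxLDL 1 (Spearman rho 0.977), and Pim1-/- PBS 2 was closest to WT PBS 1 (rho 0.916). The rows Rn45s and Mir6236, which hold ribosomal RNA sequence, took 3.01% to 28.9% and 0.0312% to 25.8% of a library's TPM.

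The members' share of all TPM differed 9.92-fold between libraries, more than the share of the mitochondrial ribosomal protein genes, which differed 3.92-fold. The share was 3.19%, 5.09% and 3.94% in Pim1-/- oxLDL, against 0.688%, 3.08% and 0.682% in WT oxLDL. It was 6.76%, 1.45% and 3.06% in Pim1-/- PBS, against 1.19%, 1.09% and 3.22% in WT PBS. The groups did not overlap in oxLDL, although Pim1-/- oxLDL 1 and WT oxLDL 2 were almost level, and they overlapped in PBS. With oxLDL the mean was 4.07% ± 0.952 in Pim1-/- and 1.48% ± 1.38 in WT, and with PBS it was 3.76% ± 2.72 in Pim1-/- and 1.83% ± 1.20 in WT (SD, n = 3 each).

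The knockout share exceeded the WT share by 2.59 percentage points in oxLDL (2.09 to 3.39 when any single library was left out) and by 1.925 points in PBS (0.423 to 3.08). The SD within groups, pooled, was 1.71 points. The oxLDL share differed from the PBS share by 0.315 points in Pim1-/- and by -0.352 points in WT, both smaller than that SD, and both changed sign when a library was left out (-0.837 to 1.82 and -1.15 to 0.341 points). No p-value is attached to a sum over the members. With the rows Rn45s and Mir6236 left out of the total, the share was 4.94% ± 0.956 in Pim1-/- oxLDL and 1.91% ± 1.73 in WT oxLDL, and 5.05% ± 3.75 in Pim1-/- PBS and 2.13% ± 1.32 in WT PBS (SD, n = 3 each). In these bulk libraries fewer cells of a type and less RNA per cell cannot be told apart.

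**Figure D1:**
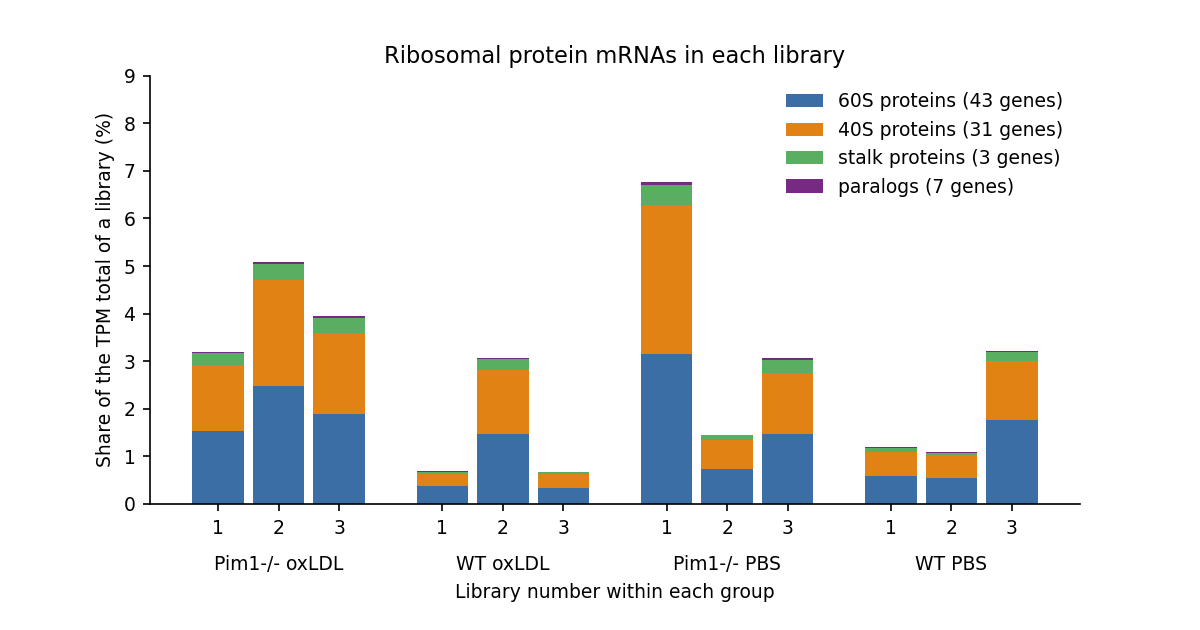
Share of all TPM held by cytoplasmic ribosomal protein genes in each of the 12 libraries, stacked by subunit class (60S, 40S, stalk and paralogs). The 3 Pim1-/- oxLDL libraries lie between 3.19% and 5.09%, WT oxLDL at 0.688%, 3.08% and 0.682%, and both PBS groups spread over ranges that overlap.

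The same libraries were high or low for nearly every member. Pim1-/- PBS 1 was the highest of the 12 libraries for 65 of the 81 members that passed the filter on low values (at least 1 TPM in at least 3 libraries). WT oxLDL 1 was the lowest for 36 of them and WT oxLDL 3 for 35. The subunits kept near each other: the summed 60S TPM was 1.00 to 1.43 times the summed 40S TPM across the libraries.

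TPM is corrected for length, so levels can be set side by side between genes. Rpl41, one of the smallest ribosomal proteins, had the highest mean over the 12 libraries with 895 TPM, followed by Rplp1 with 830 TPM, Rps29 with 773 TPM and Rps28 with 713 TPM. The median over the 77 members that are not paralogs was 344 TPM, and 72 of the 77 averaged at least 100 TPM. Differences between genes near each other in this order were not tested. Rpl41 had 1060, 1816 and 1333 TPM in Pim1-/- oxLDL and 89.6, 1070 and 145 TPM in WT oxLDL. Rps29 had 749, 1525 and 896 TPM in Pim1-/- oxLDL and 82.9, 683 and 146 TPM in WT oxLDL. Within a library Rpl41 was mostly above Rps29, but not in WT oxLDL 3 or Pim1-/- PBS 1. The lowest of the 77 was Rps15a with 18.4 TPM, a gene with processed copies that outweighed it.

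After oxLDL the fitted Pim1-/- minus WT difference was above 0 for all 81 tested members, with a median of 1.93 on the log2(TPM + 1) scale, against -0.16 over all 12594 genes tested. No member reached an adjusted p of 0.05 (limma, Benjamini-Hochberg over all tested genes), while 69 of the 81 had an unadjusted p under 0.05, and a fit without variance moderation also called 0. Of all tested genes, 0.00794% were called higher and 0% lower. In 55 of the 81 members all 3 Pim1-/- libraries lay above all 3 WT libraries, among them 24 of 31 in the 40S class, 27 of 43 in the 60S class, 3 of 3 in the stalk and 1 of the 4 tested paralogs; 6.88% of all tested genes did so.

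Rps18, a 40S protein gene widely used as a reference in quantitative PCR, had the smallest p of the members and was chosen for that after its values were seen. It had 578, 1044 and 798 TPM in Pim1-/- oxLDL, against 65.8, 564 and 98.3 TPM in WT oxLDL. The lowest Pim1-/- library was just above WT oxLDL 2, and the other 2 WT libraries lay far below. The log2 difference was 2.34 (SE 0.72, adjusted p = 0.36). The comparison turned on WT oxLDL 2: without it 39 members were called higher, and the median log2 difference of the members was 2.69 instead of 1.93. Calls over all tested genes were not counted in that fit.

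In PBS the difference was smaller and the groups overlapped. The members' median log2 difference between Pim1-/- and WT was 0.97, against -0.41 over all tested genes, and it was above 0 for 79 of 81. No member was called (limma), with 6 at an unadjusted p under 0.05 and 0 calls without moderation; 0.611% of all tested genes were called higher and 4.06% lower. Only Rps3, 1 of the 81 members, had all 3 Pim1-/- libraries above all 3 WT libraries, against 6.62% of all tested genes, and 0 had all below, against 21.1%. Rps18 had 1060, 226 and 480 TPM in Pim1-/- PBS and 202, 181 and 386 TPM in WT PBS, so that Pim1-/- PBS 1 carried the difference and WT PBS 3 lay above Pim1-/- PBS 2. Leaving out WT PBS 3 gave 1 called member, and leaving out Pim1-/- PBS 2 gave 3.

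Averaged over both treatments, 13 members were higher in Pim1-/- than in WT and 0 were lower, with 73 of the 81 at an unadjusted p under 0.05; 2.94% of all tested genes were called higher and 8.21% lower. The median log2 difference was 1.41 over the members and -0.30 over all tested genes. The 13 comprised 7 genes of the 40S subunit (Rps3, Rpsa, Rps18 and Rps20 among them), 4 of the 60S subunit (Rpl21, Rpl18, Rpl7a and Rpl29), the stalk gene Rplp2 and the paralog Rps27l. Those named were chosen because they were called, and the 13 adjusted p-values lay between 0.0276 and 0.0496.

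Rps3, which lines the channel where mRNA enters the 40S subunit, had 221, 319 and 270 TPM in Pim1-/- oxLDL and 76.3, 207 and 56.3 TPM in WT oxLDL. It had 334, 132 and 210 TPM in Pim1-/- PBS and 85.03, 70.8 and 115 TPM in WT PBS. Within each treatment every Pim1-/- library was above every WT library, and the averaged log2 difference was 1.35 (SE 0.35, adjusted p = 0.0276). Rpl21, a 60S protein gene, had 122, 243 and 144 TPM in Pim1-/- oxLDL and 26.7, 127 and 22.03 TPM in WT oxLDL, and 317, 51.7 and 172 TPM in Pim1-/- PBS and 36.6, 42.1 and 62.3 TPM in WT PBS. Its groups overlapped slightly in both treatments, and its averaged log2 difference was 1.76 (SE 0.48, adjusted p = 0.0340).

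Rpsa, the 40S protein also known as a laminin receptor precursor, had 371, 393 and 431 TPM in Pim1-/- oxLDL and 141, 354 and 128 TPM in WT oxLDL, with 558, 240 and 464 TPM in Pim1-/- PBS and 125, 100.1 and 251 TPM in WT PBS. Only the PBS groups overlapped, and the averaged log2 difference was 1.26 (SE 0.35, adjusted p = 0.0348). Rps27l, a paralog of Rps27 known as a p53 target, had 162, 328 and 260 TPM in Pim1-/- oxLDL and 53.1, 138 and 26.3 TPM in WT oxLDL, with 328, 63.7 and 204 TPM in Pim1-/- PBS and 50.7, 53.0 and 141 TPM in WT PBS. Its averaged log2 difference was 1.59 (SE 0.47, adjusted p = 0.0451).

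These 13 calls depended on the fit and on single libraries. A fit without variance moderation called 0 members, and so did a fit with no filter on low values. Without WT PBS 3 there were 66 called members, and without WT oxLDL 2 or without Pim1-/- PBS 2 there were 63 each. Leaving out WT PBS 1 gave 1, leaving out Pim1-/- oxLDL 1 gave 2 and leaving out any of the other 7 libraries gave 0. Calls over all tested genes were not counted in these fits, so the member counts cannot be set against the table as a whole. Among macrophage markers 4 of 9 tested were lower in Pim1-/- by the same averaged fit: Gata6 (log2 difference -1.95), Adgre1 (-1.58), Mertk (-1.24) and Csf1r (-1.13), where 8.21% of all tested genes were called lower. The other 5 were not called, with 3 of the 9 markers above 0. Cd68 had 2920 to 3839 TPM in Pim1-/- oxLDL and 1195 to 2806 TPM in WT oxLDL, and 2550.1 to 3733 TPM in Pim1-/- PBS and 967 to 2128 TPM in WT PBS (averaged log2 difference 1.08, SE 0.33, adjusted p = 0.0501). Their part in the members' difference was not tested.

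Between oxLDL and PBS hardly any member was called. In WT macrophages the median log2 difference between oxLDL and PBS was -0.61 over the members, close to the -0.70 over all tested genes, with 70 of 81 below 0. The only member called was Rpl22, which was lower (limma); 27% of all tested genes were called lower and 5.83% higher. All 3 oxLDL libraries lay below all 3 PBS libraries for 2 of the 81 members (Rpl22 and Rpl7l1), against 34.7% of all tested genes, and above them for 0, against 7.95%. Taking both genotypes together, 0 members had all 6 oxLDL libraries above all 6 PBS libraries, against 4.71% of all tested genes. With the libraries rescaled to equal medians the members' median turned to 0.32, and the median of all genes to 0.07.

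Rpl22, a 60S protein that is not needed for the basic function of the ribosome and that holds down its paralog Rpl22l1 in mouse cells, had 7.82, 20.5 and 16.8 TPM in WT oxLDL, against 37.1, 37.7 and 55.1 TPM in WT PBS. The groups did not overlap, and the log2 difference was -1.54 (SE 0.44, adjusted p = 0.0169). In Pim1-/- it had 19.6, 32.2 and 25.2 TPM with oxLDL, against 67.2, 34.6 and 29.3 TPM with PBS, groups that overlapped at 1 library (log2 difference -0.68, SE 0.44, adjusted p = 0.332). The difference between these responses was 0.86 (SE 0.62, adjusted p = 0.986). The WT call was lost after median scaling (log2 difference -0.65, adjusted p = 0.338), after quantile normalization (-0.83, adjusted p = 0.206) and without WT oxLDL 1 (-1.16, adjusted p = 0.0801). Without WT oxLDL 2 there were 6 members called lower, and 2 without WT PBS 3 and 2 without WT oxLDL 3.

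In Pim1-/- macrophages no member was called between oxLDL and PBS (limma), 0 had an unadjusted p under 0.05, and 0 were called without moderation; 4.45% of all tested genes were called higher and 7.8% lower. The median log2 difference was 0.39 over the members, with 72 of 81 above 0, against -0.50 over all tested genes. All 3 oxLDL libraries lay above all 3 PBS libraries in 1 member, against 8.54% of all tested genes, and below them in 0, against 29.6%. The difference of the oxLDL responses, Pim1-/- minus WT, had a median of 0.95 over the members and 0.23 over all tested genes. No member was called for it by either fit, and 0 had an unadjusted p under 0.05; 0.00794% of all tested genes were called higher and 0% lower. This difference and the comparisons within each genotype share libraries.

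The members varied across the 12 libraries almost as a block. The median Pearson correlation between pairs of members on the log2 scale was 0.919, and 57.5% of the pairs were above 0.9. Within groups, on deviations from the group means, the median was 0.915. The median was 0.399 between mitochondrial ribosomal protein genes, 0.252 between ribosome assembly factors, 0.07 between translation factors with TOP mRNAs and 0.185 between all tested genes. A single principal component held 79.1% of the members' variance. These correlations describe 12 libraries whose members share depth, composition and 1 scaling per library, and no test is attached.

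Set against the median member of each library, which ran from 70.8 TPM in WT oxLDL 1 to 816 TPM in Pim1-/- PBS 1, the typical member correlated at 0.967. Of the 81, 67 were above 0.9 and 51 above 0.95. The family median had an SD of 1.14 log2 units over the libraries, while the median member scattered about it with an SD of 0.39. The highest were Rps16 at 0.995, Rpl27a and Rps26 at 0.993 and Rpl38 at 0.991. Rps16, a 40S protein gene, had 508, 833 and 607 TPM in Pim1-/- oxLDL, 61.4, 452 and 84.0 TPM in WT oxLDL, 1064, 199 and 501 TPM in Pim1-/- PBS, and 177, 161 and 427 TPM in WT PBS. Like most members it was highest in Pim1-/- PBS 1, and it was lowest in WT oxLDL 1.

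**Figure D2:**
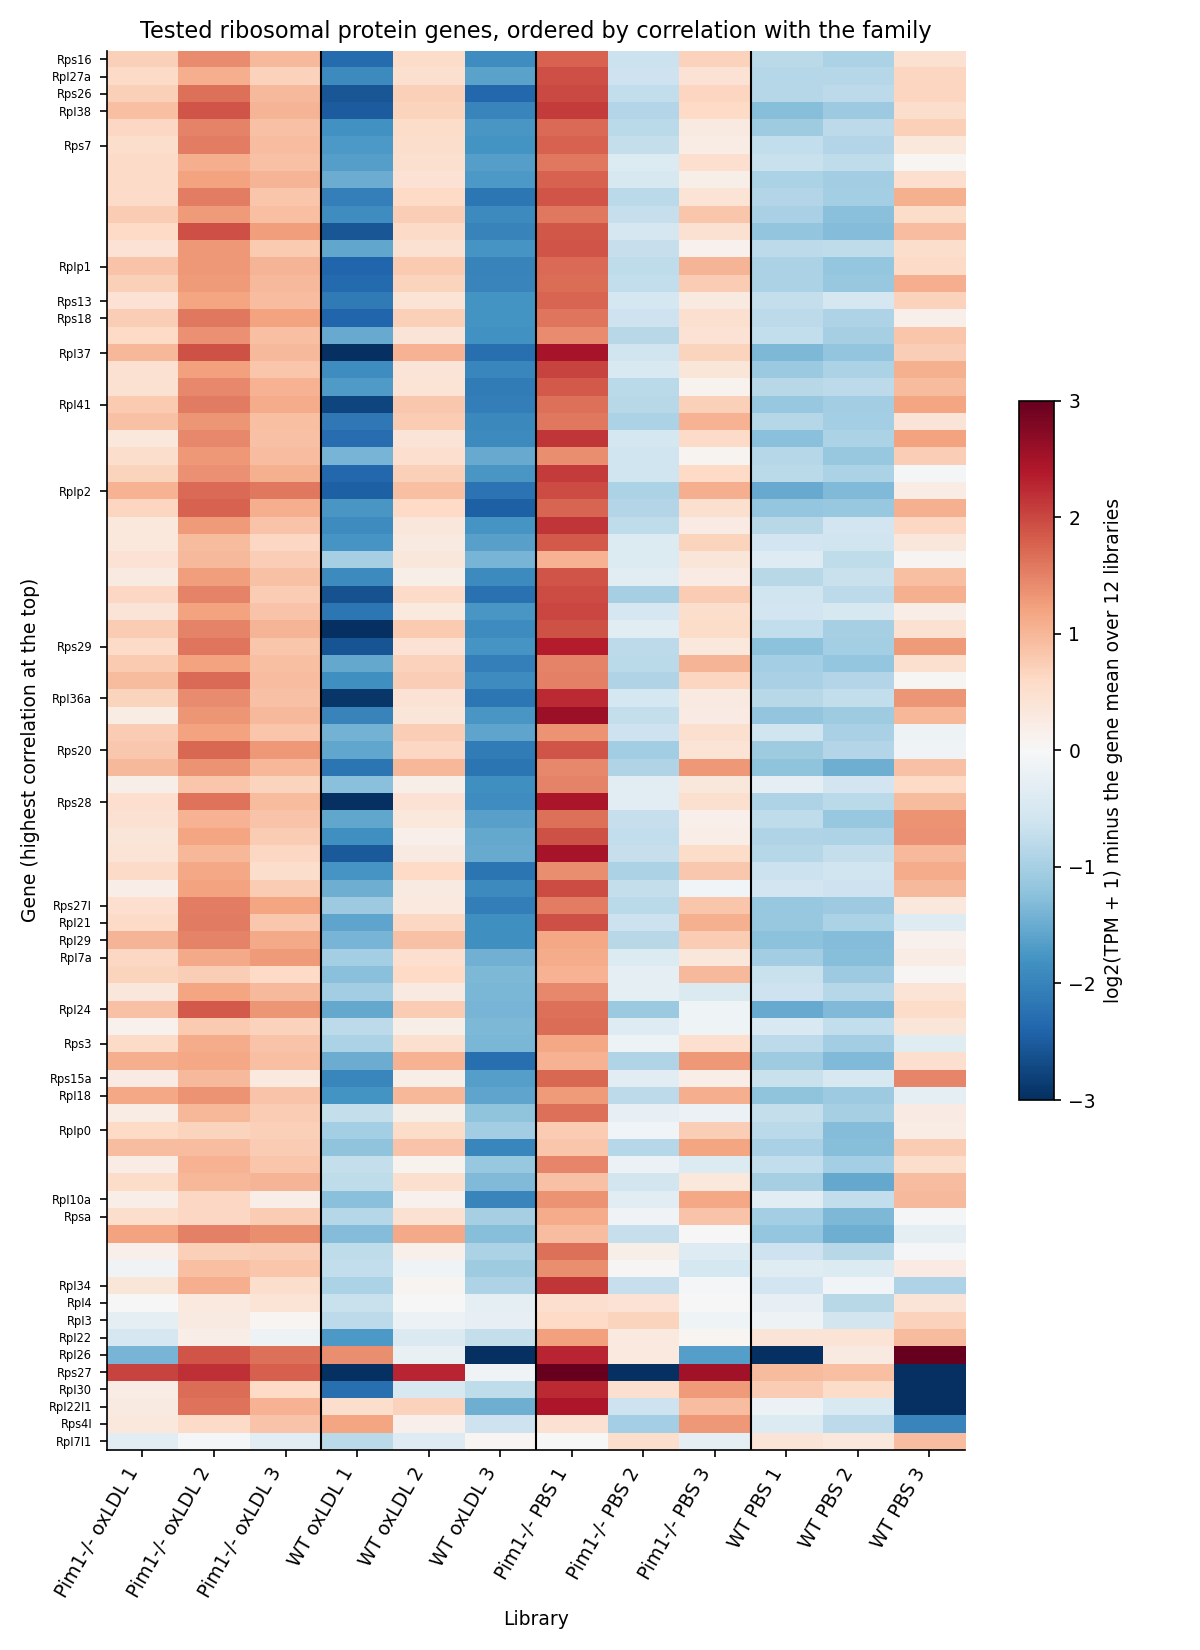
Log2(TPM + 1) of the 81 tested members (one line each, with some of them named) in the 12 libraries, as the difference from the gene's mean over all libraries, with colours limited to -3 and 3 and members ordered from the highest correlation with the family median (top) to the lowest (bottom). Columns share 1 colour over most of the height, highest in Pim1-/- PBS 1 and lowest in WT oxLDL 1 and WT oxLDL 3, and the pattern breaks up in the lowest lines.

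A correlation below 0.8 was found for 10 members: Rpl7l1 (0.01), Rps4l (0.21), Rpl22l1 (0.34), Rpl30 (0.38), Rps27 (0.48), Rpl26 (0.50), Rpl22 (0.58), Rpl3 (0.59), Rpl4 (0.77) and Rpl34 (0.80 after rounding). Of these, 3 are paralogs, and 5 (Rpl30, Rps27, Rpl26, Rpl34 and the paralog Rpl22l1) have a row in the table for a near-identical copy. Such rows also exist for members that followed the family closely, among them Rps26 (0.993), Rpl14 (0.986), Rpl37 (0.985) and Rpl31 (0.982). For Rplp2 (0.982) the row Rplp2-ps1 was taken as a copy by its name, and its likeness in sequence was not shown.

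A pyrimidine run at the transcription start is common in this family. RefSeq starts (GRCm38.p6) were found for 63 of the 84 members. An unbroken run of at least 8 C or T letters, on the gene's strand and within 20 bases before to 20 bases after the start, occurred in 30 of the 63 (47.6%), against 18.4% of 27025 genes, 19.2% of the other tested genes and 13 of 69 mitochondrial ribosomal protein genes (18.8%). Where starts are set a few bases off, the window may miss the run. For a gene with several starts the longest run at any of them was counted, which makes a run more likely. Some members from both ends of the correlation order are shown. In each the RefSeq start lay within 50 bases of the GENCODE start of the gene, as it did for 41 members. Each sequence runs 5′ to 3′ with 30 bases before the start and 20 from it, and capitals mark the longest run of C and T that touches the window of 20 bases to either side.
Rps16 (chr7:28350659-28350708, + strand): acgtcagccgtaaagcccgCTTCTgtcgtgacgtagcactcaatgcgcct
Rpl27a (chr7:109519165-109519214, + strand): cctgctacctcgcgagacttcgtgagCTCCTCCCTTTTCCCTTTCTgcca
Rps7 (chr12:28635934-28635983, - strand): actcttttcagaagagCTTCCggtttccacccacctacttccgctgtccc
Rps13 (chr7:116334171-116334220, - strand): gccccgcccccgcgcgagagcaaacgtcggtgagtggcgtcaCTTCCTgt
Rpl7l1 (chr17:46782637-46782686, - strand): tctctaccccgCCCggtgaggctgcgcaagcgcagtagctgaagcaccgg
Rpl22 (chr4:152325696-152325745, + strand): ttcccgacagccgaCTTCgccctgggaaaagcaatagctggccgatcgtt
Rpl4 (chr9:64173357-64173406, + strand): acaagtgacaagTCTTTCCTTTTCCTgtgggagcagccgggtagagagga
Rps16, Rpl27a, Rps7 and Rps13 are among the members with high correlation that meet the distance limit, and Rpl7l1, Rpl22 and Rpl4 are among the lowest. They are examples and not a full ranking. Members that followed the family more closely than Rps13, such as Rpl17 and Rps14, are not shown. Rpl27a held a run of 20 letters and Rpl4 one of 14, while Rps16 and Rps7 had runs of 5, Rps13 of 6, Rpl22 of 4 and Rpl7l1 of 3. The run length thus did not sort the members by how closely they followed the family in these examples.

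For Rps27, Rpl26 and Rpl30 the table lists a near-identical copy on a row of its own. The coding sequence of Rps27 (chr3:90212522-90213651, - strand, GRCm38) and that of Rps27rt, a copy at chr9:114982366-114982739 (- strand), have 252 bases each and differ at 0 of them, and 98.7% of the 31-base words of the Rps27 transcript also occur in Rps27rt. Rpl26 (chr11:68901583-68906989, + strand) and the copy Gm15772 (chr5:3236431-3236868, + strand) differ at 2 of 435 coding bases. The Rps27 sequence, shared letter for letter by Rps27rt, and coding bases 109 to 288 of Rpl26 and Gm15772, with capitals at the 2 bases that differ, are the stretches that reads would have to tell apart.
Rps27 and Rps27rt: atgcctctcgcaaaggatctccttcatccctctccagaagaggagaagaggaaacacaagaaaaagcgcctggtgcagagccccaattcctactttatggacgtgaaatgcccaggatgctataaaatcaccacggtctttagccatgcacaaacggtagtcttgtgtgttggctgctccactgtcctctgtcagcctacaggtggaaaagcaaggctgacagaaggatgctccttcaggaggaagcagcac
Rpl26: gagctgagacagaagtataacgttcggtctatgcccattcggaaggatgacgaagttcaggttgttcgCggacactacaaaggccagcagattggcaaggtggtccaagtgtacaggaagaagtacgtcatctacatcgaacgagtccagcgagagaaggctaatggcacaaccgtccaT
Gm15772: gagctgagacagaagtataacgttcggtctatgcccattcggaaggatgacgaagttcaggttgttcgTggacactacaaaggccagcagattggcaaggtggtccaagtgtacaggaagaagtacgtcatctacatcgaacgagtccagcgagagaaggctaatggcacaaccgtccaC

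Rps27 was listed at 401, 448 and 341 TPM in Pim1-/- oxLDL, 1.73, 482 and 90.9 TPM in WT oxLDL, 1387, 3.29 and 571 TPM in Pim1-/- PBS, and 190, 186 and 0 TPM in WT PBS. Rps27rt was listed at 89.6, 716 and 540.2 TPM in Pim1-/- oxLDL, 68.0, 0 and 0 TPM in WT oxLDL, 0, 237 and 0 TPM in Pim1-/- PBS, and 0, 0 and 1045 TPM in WT PBS. In 3 libraries (WT oxLDL 1, Pim1-/- PBS 2 and WT PBS 3) Rps27 was nearly or fully at 0 while its copy was not. The sum of both rows correlated with the family at 0.980, against 0.48 for Rps27 alone.

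Rpl26 was listed at 0 to 393 TPM and Gm15772 at 0 to 1206 TPM, with the copy above the member in 10 of 12 libraries, and the correlation with the family was 0.980 for the sum against 0.50 for the member. Rpl30, whose coding sequence differs from that of Gm12191 (chr11:49678710-49679057, - strand) at 1 of 345 bases, was listed at 0 to 93.8 TPM and the copy at 61.3 to 1023 TPM, above Rpl30 in 12 of 12 libraries. The sum correlated at 0.959 against 0.38 for the member. For Rpl34 with Rpl34-ps1 the values were 0.990 and 0.80, and for Rpl22l1 with Gm15421 they were 0.709 and 0.34. Adding the copies lowered the correlation for Rpl37 (0.985 to 0.970), Rpl14 (0.986 to 0.981) and Rps19 (0.978 to 0.975). It rose for every other member with copies. The levels of members with copies are therefore uncertain as single rows. Wdr89, which shares 36.2% of the 31-base words of Rplp2, and BC004004, which shares 38.1% of those of Rpl21, were not added. With the copies added to their members, 15 members were called higher in the averaged comparison instead of 13. Calls over all tested genes were not counted in that fit.

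**Figure D3:**
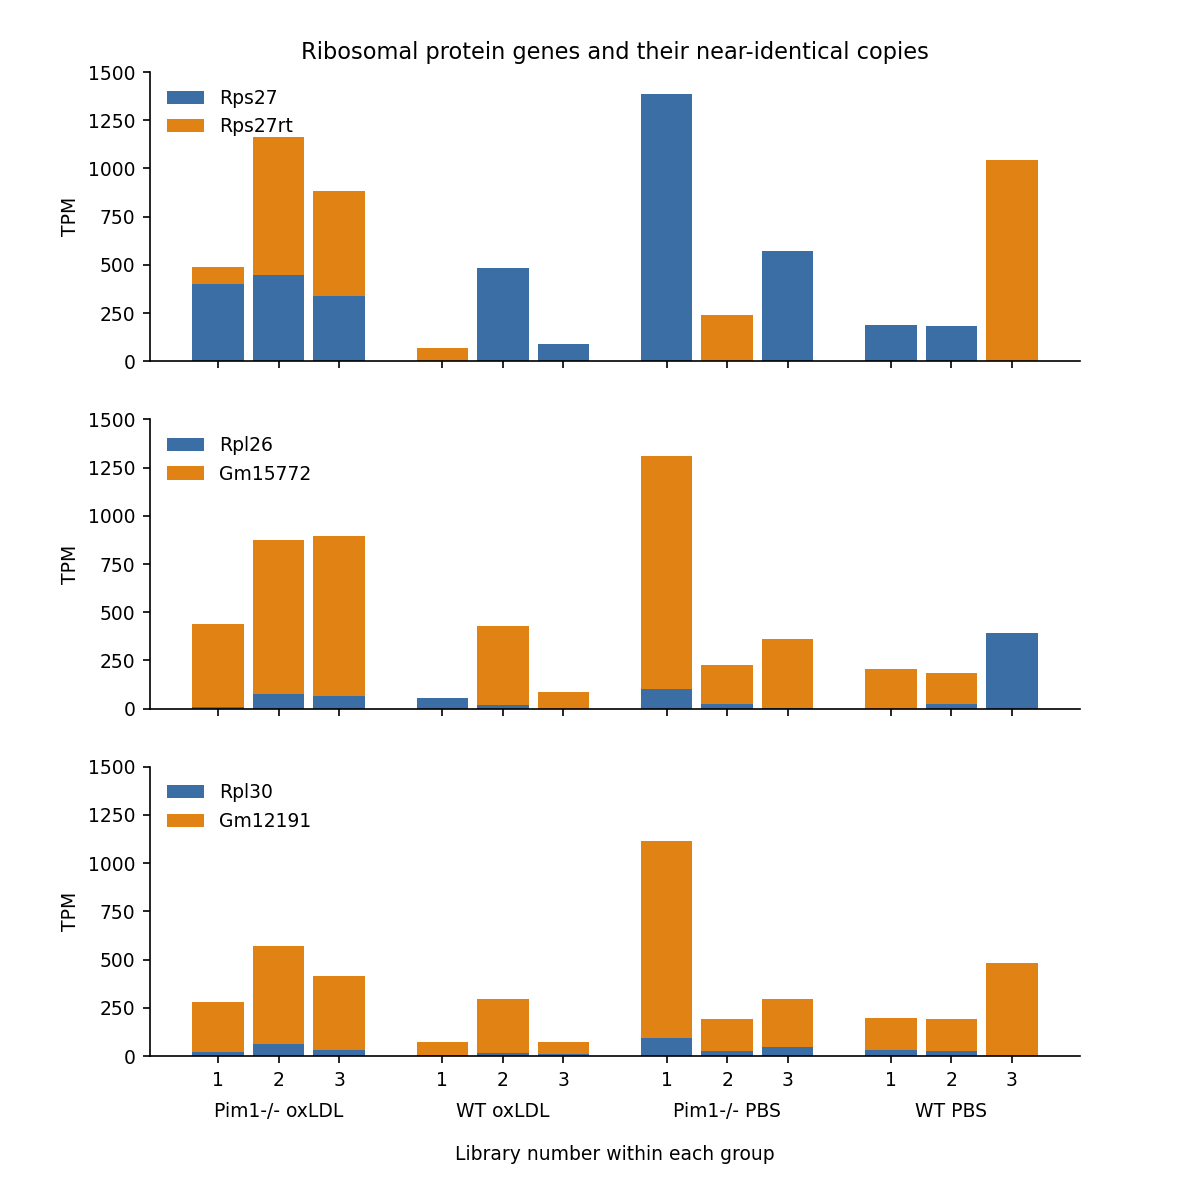
TPM of Rps27, Rpl26 and Rpl30 in each of the 12 libraries, stacked with the TPM of their near-identical copies Rps27rt, Gm15772 and Gm12191. For Rps27 and Rpl26 the larger row changes between member and copy from library to library, Gm12191 is above Rpl30 in 12 of 12, and the full bar heights correlate with the family at 0.980, 0.980 and 0.959.

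Departure from the family was tested by taking the median member of each library off every gene. On this scale a value says how far a gene lay from the median member, in log2 units. Rpl7l1 was the only member called in any of the 6 contrasts: averaged over treatments it was lower relative to the family in Pim1-/- than in WT by -1.60 (SE 0.67, adjusted p = 0.0410), where 55.3% of all tested genes were also called lower and 0.0238% higher. The call was lost in 9 of the 12 fits that left out 1 library. It was also lost in a fit with the replicate number as a block (adjusted p = 0.0851), after removal of the length trend (-0.45, adjusted p = 0.498) and without moderation (adjusted p = 0.0758). Leaving out WT oxLDL 2 or Pim1-/- PBS 2 gave 4 called members each in the averaged comparison, without a count over all tested genes beside them.

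Rpl7l1, a paralog of Rpl7 that in human cells takes part in 60S maturation, had 39.2, 46.4 and 38.0 TPM in Pim1-/- oxLDL, 27.5, 36.8 and 50.4 TPM in WT oxLDL, 48.2, 71.0 and 39.4 TPM in Pim1-/- PBS, and 63.8, 61.3 and 94.1 TPM in WT PBS. On the TPM scale its averaged log2 difference was -0.17 (SE 0.26, adjusted p = 0.678), while the median over the members was 1.41.

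Rpl3 and Rpl4, large proteins at the core of the 60S subunit, varied least between libraries. Rpl3 had 265, 384 and 333 TPM in Pim1-/- oxLDL, 185, 283 and 271 TPM in WT oxLDL, 483, 511 and 291 TPM in Pim1-/- PBS, and 289, 218 and 519 TPM in WT PBS, a range of 2.81-fold. Rpl4 ranged 2.55-fold. The median member ranged 12.4-fold. Relative to the family in oxLDL, the Pim1-/- minus WT difference was -1.51 for Rpl3 (SE 0.83, adjusted p = 0.108) and -1.37 for Rpl4 (SE 0.80, adjusted p = 0.124). The other extremes of that comparison were Rpl7l1 at -1.79 and Rps4l at -1.59, against Rps27 at 1.07, Rpl37 at 0.92 and Rplp2 at 0.76. Without WT oxLDL 1 the value was -0.62 for Rps27 and -0.72 for Rps4l. No member was called in it (limma), nor without moderation; 0% of all tested genes were called higher and 0.683% lower. Without WT oxLDL 2 there were 4 called members.

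In PBS the relative difference between Pim1-/- and WT ran from -1.41 for Rpl7l1, -0.99 for Rpl22 and -0.65 for Rpl26 to 1.26 for Rps27, 1.41 for Rpl30 and 1.78 for Rpl22l1. The 3 highest rest on WT PBS 3, where Rps27, Rpl30 and Rpl22l1 are each listed at 0: without it their differences were -1.71, -0.70 and -0.16. Rpl26 stood at 0.99 without WT PBS 3 and at 0.29 without Pim1-/- PBS 3. None was called by either fit, against 0% of all tested genes higher and 0.00794% lower, and leaving out Pim1-/- PBS 2 gave 1.

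Rpl24, a 60S protein at the subunit interface, was 1 of 2 members whose 6 oxLDL libraries all lay above their 6 PBS libraries on this scale. Relative to the family it stood at 0.04, 0.33 and 0.09 in Pim1-/- oxLDL, 0.00, -0.02 and 0.08 in WT oxLDL, -0.30, -0.85 and -0.87 in Pim1-/- PBS, and -1.01, -0.69 and -0.22 in WT PBS. The relative oxLDL difference was 0.82 in Pim1-/- (SE 0.81, adjusted p = 0.701) and 0.66 in WT (SE 0.81, adjusted p = 0.972). Members with that separation, 2 of 81 (2.47%), match the 2.39% of all tested genes with it, so their number is no more than the table as a whole shows. No member separated the 6 Pim1-/- from the 6 WT libraries on this scale.

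Rpl22 lay at the other end, at -4.18, -4.16 and -4.23 in Pim1-/- oxLDL, -3.02, -4.08 and -2.09 in WT oxLDL, -3.58, -2.30 and -3.52 in Pim1-/- PBS, and -1.95, -1.80 and -2.68 in WT PBS. The oxLDL and PBS groups did not overlap in Pim1-/- and did in WT. The relative oxLDL difference was -1.06 in Pim1-/- (SE 0.95, adjusted p = 0.700) and -0.92 in WT (SE 0.95, adjusted p = 0.968). Next to Rpl22, the lowest members in Pim1-/- were Rpl30 at -0.88 and Rpl10a at -0.77, and in WT Rpl36a at -0.84 and Rps28 at -0.76. Among the highest were Rps27 at 1.02 and Rpl24 at 0.82 in Pim1-/-, and Rpl22l1 at 2.34, Rps4l at 1.92 and Rps27 at 1.21 in WT. In WT PBS 3 these 3 were listed at 0, and without that library the WT values were 0.40 for Rpl22l1, 1.01 for Rps4l and -1.76 for Rps27. Without Pim1-/- PBS 2, where Rps27 had 3.29 TPM, its value in Pim1-/- was -1.02. None was called by the moderated fit. Of all tested genes 0.921% were called higher and 0.23% lower in Pim1-/-, and 2.06% higher and 0.159% lower in WT.

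**Figure D4:**
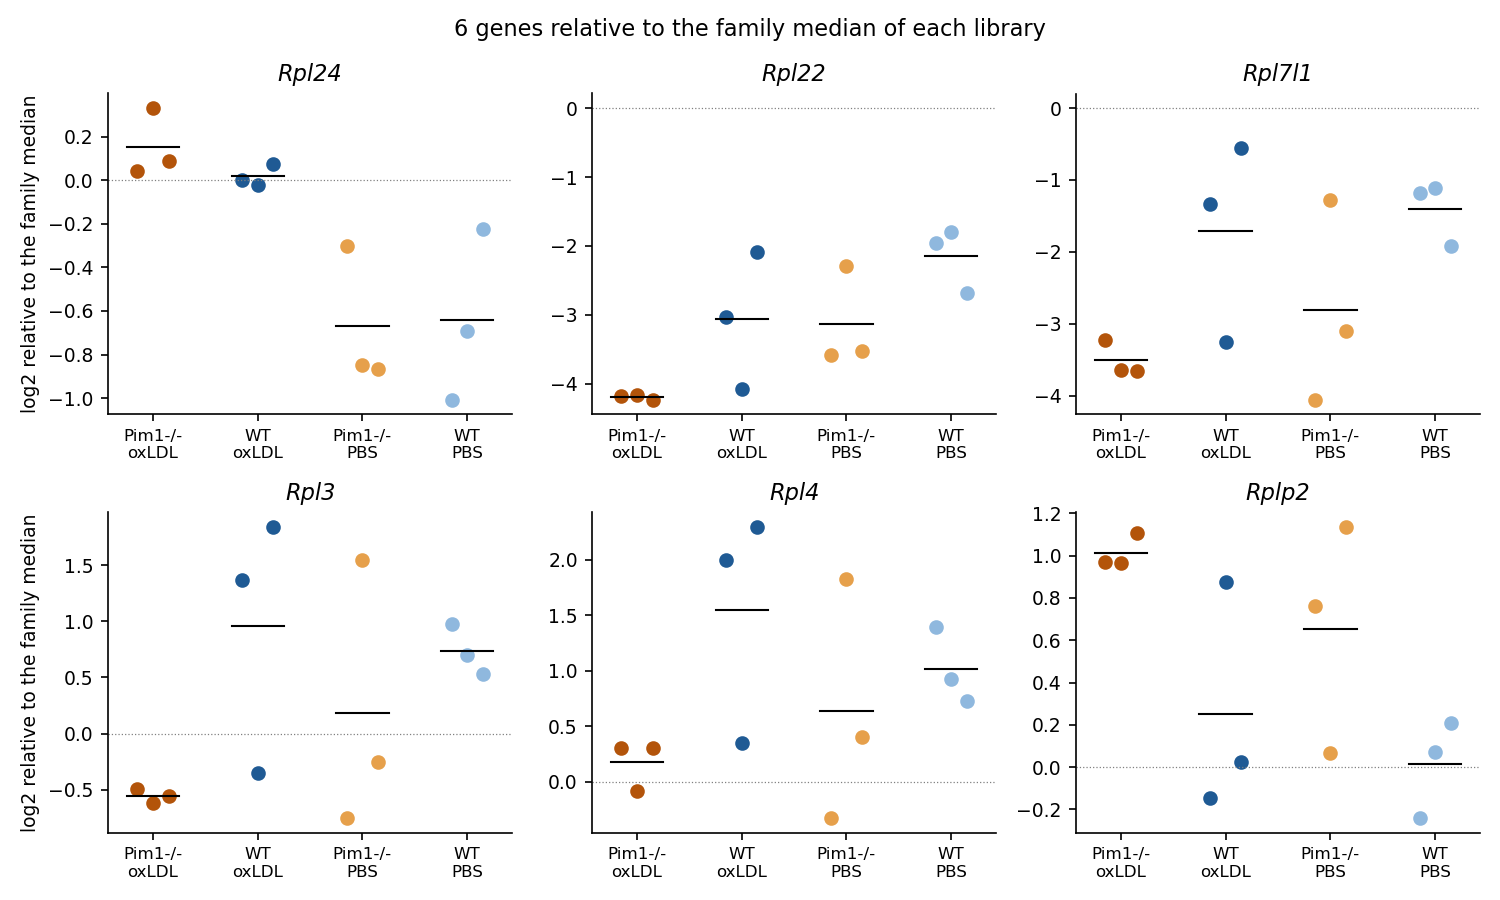
Log2 distance of 6 members (Rpl24, Rpl22, Rpl7l1, Rpl3, Rpl4 and Rplp2) from the median ribosomal protein gene of the same library, with a point per library and a line at each group mean of 3. For Rpl24 the 6 oxLDL points lie between -0.02 and 0.33 and the 6 PBS points between -1.01 and -0.22.

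The stalk genes did not keep a fixed ratio. Rplp2 over Rplp0, the P2 protein over its anchor P0, was 0.9504, 1.43 and 1.28 in Pim1-/- oxLDL, 0.254, 0.890 and 0.307 in WT oxLDL, 1.60, 0.380 and 0.897 in Pim1-/- PBS, and 0.427, 0.687 and 0.701 in WT PBS. The ratio was lowest in WT oxLDL 1, WT oxLDL 3 and Pim1-/- PBS 2. Rplp0 had 771, 806 and 830 TPM in Pim1-/- oxLDL and 251, 745 and 248 TPM in WT oxLDL, a narrower spread than the 733, 1154 and 1059 TPM and the 63.9, 663 and 76.1 TPM of Rplp2. Rplp2 was called in the averaged comparison (log2 difference 2.13, SE 0.60, adjusted p = 0.0382). Rplp1 (1.71, SE 0.56, adjusted p = 0.0600) and Rplp0 (1.13, SE 0.36, adjusted p = 0.0560) were not.

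Of the 7 paralogs, 3 did not pass the filter on low values. Rpl3l, known from striated muscle, and Rpl10l and Rpl39l, known from testis, were listed at no more than 0.807 TPM in any library, and Rpl10l was at 0 in 11 of 12. Rps4l had 3.86, 4.82 and 6.03 TPM in Pim1-/- oxLDL, 7.89, 3.34 and 1.55 TPM in WT oxLDL, 4.38, 0.943 and 8.59 TPM in Pim1-/- PBS, and 1.93, 1.27 and 0 TPM in WT PBS. Rpl22l1 had 32.1, 83.8 and 55.4 TPM in Pim1-/- oxLDL, 38.5, 43.1 and 8.99 TPM in WT oxLDL, 146, 16.9 and 50.8 TPM in Pim1-/- PBS, and 23.4, 19.0 and 0 TPM in WT PBS. Both overlapped between genotypes in each treatment, and neither was called. Rps27l was the paralog closest to the family's pattern by level.

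Ribosomal protein transcripts are short, and the genotype difference varied with transcript length across the whole table. The members had a median principal transcript of 777.5 nt, against 2259 nt over all genes with a length. In oxLDL the median log2 difference between Pim1-/- and WT in other tested genes was 0.47 under 600 nt, 0.68 from 600 to under 1200 nt, -0.05 from 1200 to under 2400 nt, -0.25 from 2400 to under 4800 nt and -0.49 from 4800 nt on. The members stood above these in each class, at 2.18 (26 genes), 1.91 (42 genes), 1.29 (10 genes), 1.22 (2 genes) and 1.65 (1 gene). From 2400 nt on, the members were only the paralog Rpl7l1 (2606 nt), Rps20 (3706 nt) and Rps15a (5130 nt). Their class rests on the annotated length of 1 principal transcript each. In PBS the other genes had 0.56, 0.71, -0.08, -0.64 and -0.76, and the members 0.98, 0.97, 0.77, 0.31 and 0.41. With each library's trend on length removed, the members' median difference was 1.04 in oxLDL, 0.18 in PBS and 0.61 averaged, with 0 members called in the averaged comparison. Across the 81 members the log2 difference in oxLDL correlated with log2 length at -0.43, a description over genes that share libraries.

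**Figure D5:**
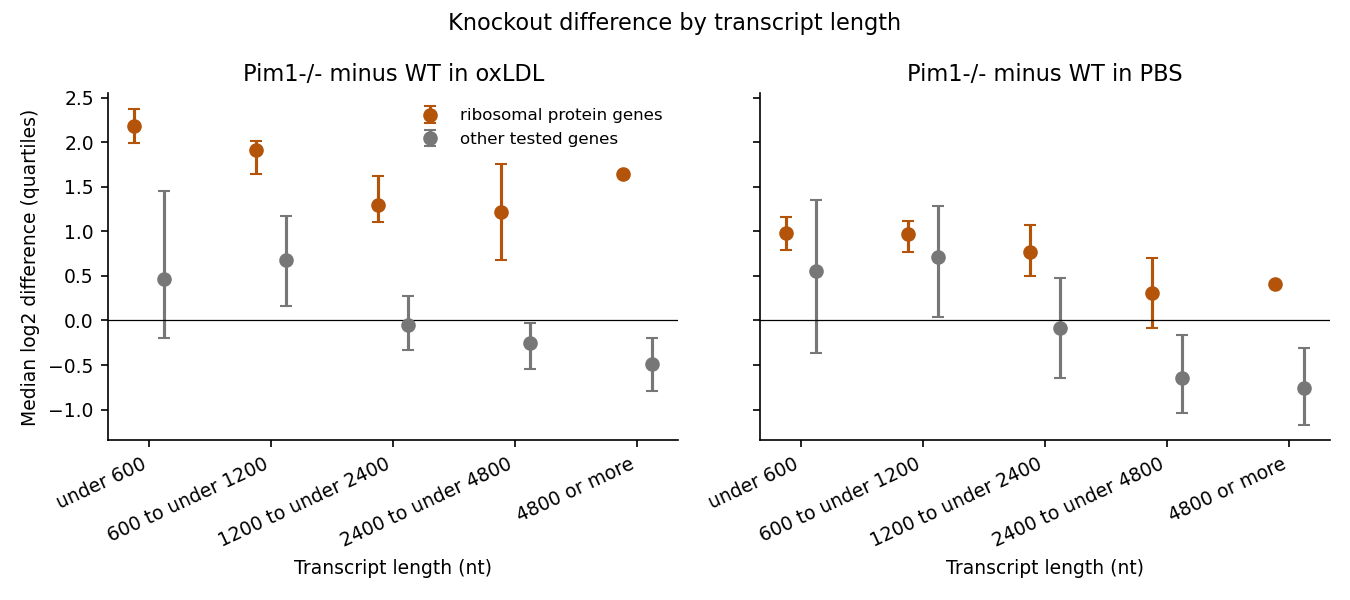
Median log2 difference between Pim1-/- and WT, with quartiles, by transcript length class in nt, for ribosomal protein genes and for other tested genes, in oxLDL (left) and PBS (right). In oxLDL the ribosomal protein genes lie above the other genes of their class, 2.18 against 0.47 under 600 nt, and in PBS they lie closer, 0.98 against 0.56.

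Other genes of translation did not all move with the members. Of 4 tested ribosomal protein genes that the naming rule leaves out (Fau, Rpl36al and Gnb2l1, now Rack1, among them), Rpl36al was higher in the averaged comparison (log2 difference 2.07, SE 0.51, adjusted p = 0.0231), and the median of the 4 was 1.57. Of 77 mitochondrial ribosomal protein genes, 12 were higher and 0 lower, against 2.94% of all tested genes higher and 8.21% lower, with a median of 1.05. Among them were Mrpl13 (2.40, SE 0.54, adjusted p = 0.0165) and Mrps33 (2.22, SE 0.58, adjusted p = 0.0286). Of 18 translation factors with TOP mRNAs none was called (5 at an unadjusted p under 0.05), with a median of 0.48. The elongation factor gene Eef1a1 ranged from 1253 to 5765 TPM.

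Among 15 regulators of mTORC1 and of TOP mRNAs, 2 were called lower and 0 higher in Pim1-/- averaged over treatments (limma). Of all tested genes 8.21% were called lower and 2.94% higher. The median log2 difference was -0.48 over the 15 and -0.30 over all tested genes. The 2 were Eif4ebp2, a 4E-BP that blocks cap-dependent initiation (log2 difference -1.29, SE 0.31, adjusted p = 0.0205), and Rptor, the mTORC1 scaffold (-1.05, SE 0.31, adjusted p = 0.0464). Another 4E-BP gene, Eif4ebp1, went the other way and was not called. It had 114, 83.5 and 87.6 TPM in Pim1-/- oxLDL and 34.1, 99.9 and 16.8 TPM in WT oxLDL. In PBS it had 71.1, 25.3 and 141 TPM in Pim1-/- and 23.3, 21.9 and 0 TPM in WT. With oxLDL in WT, 6 of the 15 were lower and 1 higher, where 27% of all tested genes were called lower and 5.83% higher. The median log2 difference in that comparison was -0.83 over the 15 and -0.70 over all tested genes. Eif4ebp2 fell by 2.54 (SE 0.43, adjusted p = 0.000849), Mtor fell by 1.21 (SE 0.40, adjusted p = 0.0315) and Larp1 rose by 1.73 (SE 0.40, adjusted p = 0.00577). Of 34 assembly factors, 7 were lower and 2 higher with oxLDL in WT, shares near the same 27% and 5.83% of all tested genes. Among them were Dkc1, the pseudouridine synthase of ribosomal RNA (-2.20, SE 0.52, adjusted p = 0.00673), Polr1a, the largest subunit of RNA polymerase I (-1.71, SE 0.35, adjusted p = 0.00271), Eif6 (2.14, SE 0.49, adjusted p = 0.00554) and Sbds (1.53, SE 0.35, adjusted p = 0.00568), the last 2 acting in 60S maturation. In Pim1-/- with oxLDL, Sbds was higher by 1.32 (SE 0.35, adjusted p = 0.0257) and Polr1a lower by -1.32 (SE 0.35, adjusted p = 0.0245).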

How the data were processed

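Stranded mRNA libraries were sequenced on an Illumina instrument, per the labels. The authors deposited 1 table of TPM per gene, which was used as it stands. Salmon, DESeq2 and mm10 appear in the submitters' processing notes without versions, and their roles and the annotation are not given in the sources used here. Salmon-type estimates share reads among near-identical transcripts, so values of single copies are uncertain. Log2(TPM + 1) values of the 12594 genes with at least 1 TPM in at least 3 libraries were fitted with limma 3.58.1 in R 4.3.3 (4 group means, 12 libraries, empirical Bayes with an intensity trend), with Benjamini-Hochberg adjustment over all tested genes and a call at an adjusted p of 0.05. Fold differences of low genes are understated on this scale. In a further fit the median log2 of the 81 tested members was subtracted per library. Of the gene names, 95.7% matched GENCODE M21 (GRCm38), which gave coordinates, coding sequences and the length of 1 principal transcript per gene; starts came from RefSeq (GRCm38.p6). The fit was run on simulated data with noise independent between genes and libraries. That run does not cover variation that the members share within a library. Python 3.11.15 with numpy 2.4.6, pandas 2.3.3, scipy 1.17.1 and matplotlib 3.10.9 was used for the rest.

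The members, gene lists and tests were chosen with earlier results of these data known. Named members were those called relative to the family, the 3 highest and 3 lowest relative changes per contrast, the 5 highest mean levels and all paralogs. Others, among them the 13 called members, Rps18, Rpl4 and the members with copies, were named after their values were seen. Deviations of same-numbered libraries correlated at -0.521 to 0.165 over 18 pairs (median -0.049). Those of differently numbered libraries correlated at -0.271 to 0.724 over 36 pairs (median 0.007). The labels do not say whether replicate numbers pair the libraries, and these correlations cannot exclude it. Results of some single genes are not reported here.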

Additional observations from a re-analysis of the deposited data

How the results depend on the processing

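Under every alternative run for them, the share differences moved by less than the pooled SD within groups of 1.71 points. That SD is near the PBS genotype difference in size and exceeds both differences between oxLDL and PBS. This comparison therefore does not show that they are stable. With 1 library left out, the PBS genotype difference ran from 0.423 to 3.08 points. Both differences between oxLDL and PBS changed sign. The 13 members called higher in Pim1-/- averaged over treatments became 3 with a pseudocount of 0.1, 0 without a filter on low values, 26 with a filter of 5 TPM, 8 without Rn45s and Mir6236, 0 with the length trend removed and 0 without moderation, and 0 to 66 when 1 library was left out. With the replicate number as a block they became 0, and whether the numbers pair the libraries is unknown. The 1 member lower with oxLDL in WT became 0 under median scaling and 0 under quantile normalization, 2 without moderation and 0 to 6 with 1 library left out. With 1 library left out the calls in Pim1-/- against WT were 0 to 39 in oxLDL and 0 to 3 in PBS. The 1 departing member became 0 with a pseudocount of 0.1, 3 without a filter, 0 with the length trend removed, 0 with the replicate block, 0 without moderation and 0 to 4 with 1 library left out. Departures were 0 to 4 in oxLDL and 0 to 1 in PBS with 1 library left out, and 1 with oxLDL in WT without moderation.

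In these and the following alternative fits only members were counted. The share of all tested genes called was not, so a rise in calls may not be particular to the members. Fits without both of 2 libraries, chosen after seeing the data from their likeness over all genes, gave more calls and are no independent support. Without WT oxLDL 2 and Pim1-/- PBS 2 there were 74 calls averaged, 57 in oxLDL, 22 in PBS and 19 with oxLDL in WT, and 9, 11 and 2 departures averaged, in oxLDL and in PBS. Without WT oxLDL 2 and Pim1-/- oxLDL 1 there were 60 calls averaged and 10 in oxLDL, and 2 and 3 departures. The fits without moderation and with copies added were also chosen after seeing the data. The relative differences of the most extreme members without 1 library, chosen likewise, turned sign for Rps27, Rpl30, Rpl22l1 and Rpl26, as given above. Of the other recomputed values of single members, 184 kept their side of the threshold and 205 lost a call, with none changing direction. The causes were not tested. Depth is unknown from TPM, so a level of 0 in these data limits nothing.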

Other observations

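Ribosomal protein genes that serve as common references in quantitative PCR varied widely across these 12 libraries. The highest library was 4.21 times the lowest for Rplp0, 7.47 times for Rpl19, 11.8 times for Rpl13a and 16.1 times for Rps18, against 12.4 times for the median member. In these TPM values a ratio to any of them would carry its own difference between libraries. Their behaviour in quantitative PCR was not measured here.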
